A study of Rattus norvegicus with 10 samples.

Results

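The nutrient solute carriers are membrane proteins that move sugars, lactate and other monocarboxylates, amino acids, fatty acids and some vitamins across the cell surface and organelle membranes. They were taken here as every gene of the deposited table whose symbol begins with Slc2a, Slc5a, Slc7a, Slc16a, Slc27a, Slc36a, Slc38a or Slc43a. That choice gave 73 symbols on 78 of the 25269 rows of the table. The tissue was the hippocampus of male Sprague-Dawley rats of 200 to 240 g, taken 1 week after surgery and after a learning test. The 5 TBI libraries came from rats with a traumatic brain injury made by fluid percussion, in which a pulse of fluid strikes the exposed dura, and the 5 sham libraries from rats given sham surgery. Whether every library stands for a different animal is not spelled out in the labels, and p-values cover library-to-library spread alone, which may be technical.

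In brain, glucose enters through the facilitated carriers of the Slc2a family, and lactate and ketone bodies move between blood, glia and neurons through the Slc16a family. Large neutral amino acids cross the blood-brain barrier through Slc7a carriers that pair with the heavy chain Slc3a2. Glutamine passes from astrocytes to neurons through the Slc38a family, which supplies the precursor of glutamate and GABA. The Slc5a family couples transport of sugars, myo-inositol, iodide, choline and vitamins to sodium, and the Slc27a family takes up and activates long-chain fatty acids. Slc36a proteins are proton-coupled amino acid carriers, and Slc43a proteins carry neutral amino acids and, in the case of Slc43a3, purine bases.

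Levels are in FPKM, a fragment number divided by transcript length and by library size, so levels of different genes can be compared per length. The sum over all rows lay between 539094 and 596214 FPKM in the TBI libraries and between 523239 and 629660 FPKM in the sham libraries, and no depth can be given. Of 10 hippocampal subfield markers 8 were in the table and 6 had a mean of at least 0.5 FPKM, with a summed level of 180 to 377 FPKM in TBI and 214 to 479 FPKM in sham. The dentate gyrus genes Prox1 and C1ql2 were present in every library, while the CA1 gene Fibcd1 was listed at 0 throughout. Of the same markers, Wfs1 was at 64.0 to 161 FPKM in TBI and 70.1 to 265 FPKM in sham. Grik4 was at 12.0 to 31.7 FPKM in TBI and 16.8 to 27.8 FPKM in sham. Whether fragments of Fibcd1, which stood on 2 loci, lie on other rows was not tested. Its listing at 0 therefore does not tell whether CA1 was in the tissue. Of 16 choroid plexus markers 15 were in the table, and their sum ran from 159 to 34571 FPKM in TBI and from 109 to 32951 FPKM in sham. The ranges were alike, but the median sum was 12777 FPKM in TBI and 527 FPKM in sham. All 14 tested choroid plexus markers had a log2 difference, TBI minus sham, above 0, against 50.4% of all rows. The median of these differences was 1.91, and the groups overlapped for each marker. TBI 1 and sham 2 had the highest choroid plexus sums. In bulk tissue, fewer cells of a type and less RNA per cell cannot be told apart.

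The start regions of 4 carriers are shown because the results below turn on these genes: Slc2a1 had the highest level, Slc38a6 the smallest p, and Slc16a8 and Slc5a5 varied widely between libraries. Each is the RefSeq window of 250 bases before to 50 bases after the gene start on GRCr8, a newer build than the one of the deposited values, given 5′ to 3′ on the gene's strand. Capitals mark the GC box GGGCGG and its reverse complement CCGCCC, and the TATA box TATAAA and its reverse complement TTTATA. Slc2a1 lies at chr5:138002272-138002571 on the plus strand, Slc38a6 at chr6:97723276-97723575 on the plus strand, Slc16a8 at chr7:112702447-112702746 on the minus strand and Slc5a5 at chr16:18580455-18580754 on the plus strand.
Slc2a1: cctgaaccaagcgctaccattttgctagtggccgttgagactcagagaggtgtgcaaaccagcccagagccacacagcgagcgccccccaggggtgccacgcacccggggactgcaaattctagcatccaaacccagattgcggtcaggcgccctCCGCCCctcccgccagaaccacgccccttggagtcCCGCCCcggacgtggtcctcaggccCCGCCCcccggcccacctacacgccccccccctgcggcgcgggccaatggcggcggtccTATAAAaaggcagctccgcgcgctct
Slc38a6: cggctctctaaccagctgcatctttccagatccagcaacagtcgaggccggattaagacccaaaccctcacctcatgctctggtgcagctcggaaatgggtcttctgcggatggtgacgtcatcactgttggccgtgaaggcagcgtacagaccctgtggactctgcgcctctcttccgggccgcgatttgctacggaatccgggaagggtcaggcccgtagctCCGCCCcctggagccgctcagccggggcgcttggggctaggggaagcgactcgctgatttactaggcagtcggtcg
Slc16a8: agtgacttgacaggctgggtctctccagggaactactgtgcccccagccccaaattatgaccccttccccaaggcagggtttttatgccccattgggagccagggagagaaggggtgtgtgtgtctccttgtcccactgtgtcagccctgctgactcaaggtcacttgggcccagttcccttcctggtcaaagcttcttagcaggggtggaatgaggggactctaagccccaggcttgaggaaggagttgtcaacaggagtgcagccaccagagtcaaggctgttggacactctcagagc
Slc5a5: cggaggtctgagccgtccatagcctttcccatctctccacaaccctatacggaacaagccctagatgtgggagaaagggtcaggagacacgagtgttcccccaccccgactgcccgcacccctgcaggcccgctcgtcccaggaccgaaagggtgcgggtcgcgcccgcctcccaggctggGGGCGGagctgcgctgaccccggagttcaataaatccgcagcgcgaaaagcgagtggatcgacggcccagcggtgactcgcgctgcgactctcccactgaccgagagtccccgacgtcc
The Slc2a1 window held 3 GC boxes and 1 TATA box, those of Slc38a6 and Slc5a5 held 1 GC box each, and that of Slc16a8 held neither motif. Windows were given for 57 of the 73 carriers. A GC box stood in 22 of the 57 (38.6%), against 33.1% of all 33469 windows, and a TATA box in 5 of the 57 (8.77%), against 14.2% of all windows. The median level was 14.3 FPKM for the 22 carriers with a GC box and 0.980 FPKM for the 35 without one. These are matches of letters, with no test.

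The carriers were expressed over a wide range. A mean of at least 10 FPKM over the 10 libraries was reached by 22 symbols, 23 more had a mean from 1 to 10 FPKM, 8 from 0.5 to 1 FPKM, and the other 20 lay below 0.5 FPKM and were not tested. Slc2a1 had the highest mean, at 60.9 ± 10.7 FPKM (SD, n = 10), and stood above the next gene in all 10 libraries. It was followed by Slc5a3 at 38.7 ± 5.06 FPKM, Slc38a3 at 36.9 ± 13.2 FPKM and Slc27a1 at 33.2 ± 2.97 FPKM. Slc5a3 and Slc38a3 differed from the next in order by less than the larger SD of the pair, while Slc27a1 exceeded Slc38a1 by 3.52 FPKM, more than that SD. From Slc38a1 at 29.7 FPKM down to Slc27a4 at 24.9 FPKM, no neighbours in the order differed beyond their spread.

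Summed by family, Slc7a carriers gave 158 ± 5.79 FPKM in TBI and 159 ± 6.52 FPKM in sham (SD, n = 5 each). The Slc2a family gave 117 ± 7.21 FPKM in TBI and 126 ± 13.2 FPKM in sham, and Slc2a1 made up 50.1% of it as deposited. That sum holds Slc2a3, the main glucose carrier of neurons, at a mean of only 0.279 FPKM, an unusually low listing described below. The Slc38a family gave 112 ± 19.1 FPKM in TBI and 107 ± 4.95 FPKM in sham. For Slc38a, TBI 1 was at 145 FPKM and the other TBI libraries at 98.2 to 108 FPKM, against 103 to 115 FPKM in sham. The group means of all 3 families lay within the spread of their libraries. The Slc16a family stood at 96.5 ± 26.7 FPKM in TBI and 84.3 ± 20.6 FPKM in sham, and the Slc5a family at 71.4 ± 15.1 FPKM in TBI and 65.1 ± 17.4 FPKM in sham. TBI 1 and sham 2 had the highest sums of both families, 138 and 119 FPKM for Slc16a and 97.9 and 95.8 FPKM for Slc5a. The Slc27a family gave 65.3 ± 4.85 FPKM in TBI and 63.7 ± 4.85 FPKM in sham, Slc43a 13.6 ± 0.643 FPKM in TBI and 13.1 ± 1.06 FPKM in sham, and Slc36a 13.1 ± 3.44 FPKM in TBI and 13.5 ± 0.870 FPKM in sham.

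**Figure D1:**
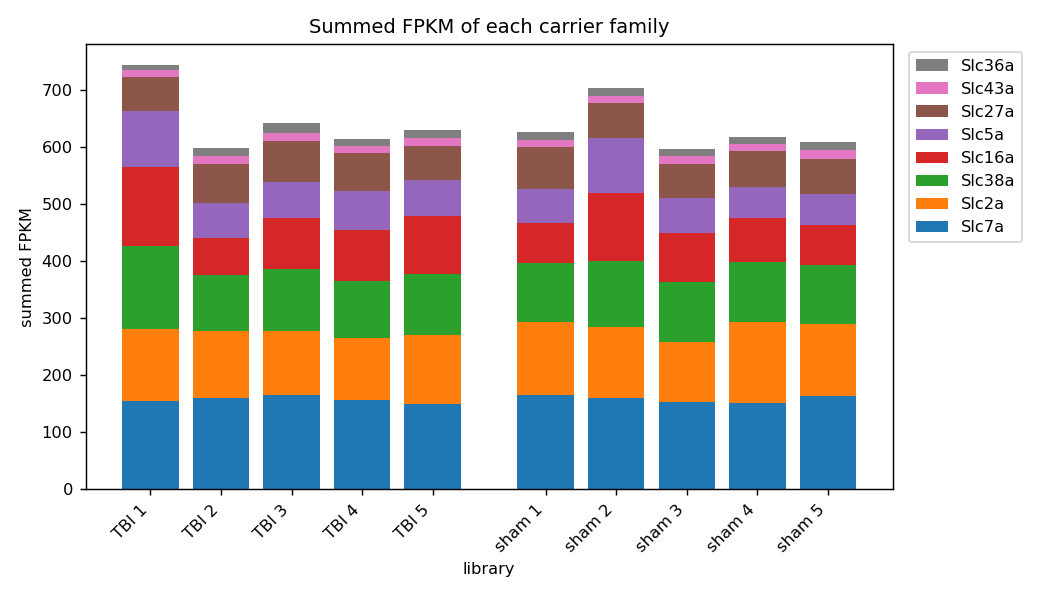
Summed FPKM of the 8 carrier families in each of the 5 TBI and 5 sham libraries, stacked by family (bars start at 0). The tallest bars are TBI 1 at 744 FPKM and sham 2 at 704 FPKM, and the others lie between 597 and 643 FPKM.

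**Figure D2:**
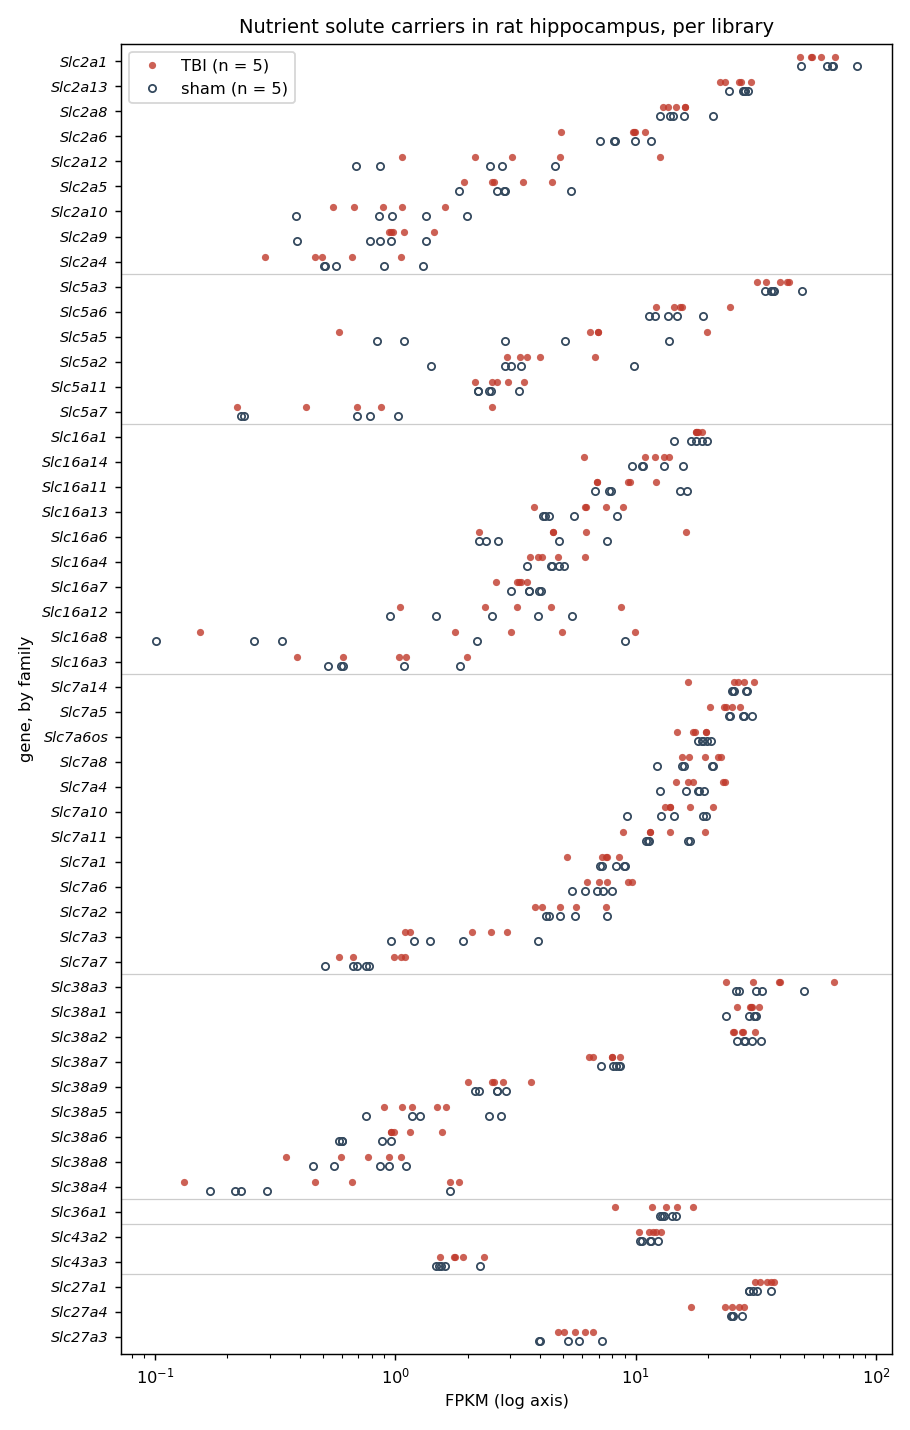
FPKM (log axis) of 52 of the 53 carriers with a mean of at least 0.5 FPKM, ordered by family and level, with 5 TBI libraries as filled points and 5 sham libraries as open points. The groups overlap for every gene drawn, and Slc16a8 has the largest coefficient of variation of the tested carriers, 116%.

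The comparison of TBI with sham asks which carriers differ 1 week after the injury. None of the 53 tested carriers passed limma's test (a linear model with variances shared across genes) on log2(FPKM + 0.5) after Benjamini-Hochberg adjustment over the 16194 rows tested, and neither did any other row (0 called, 0%). At an unadjusted p under 0.05 there was 1 carrier, Slc38a6, or 1.89% of those tested, against 472 rows or 2.91% of the table. It was higher in TBI, as were 1.41% of all rows at that threshold, and 0 carriers were lower, against 1.51% of all rows. Groups were free of overlap for 0 carriers, against 0.482% of all rows (0.241% higher in TBI and 0.241% lower). The fitted log2 difference, TBI minus sham, was above 0 for 30 carriers and below 0 for 23, against 50.4% of all rows above 0. Its median was 0.05 over the carriers and 0.0013 over all rows. The 95% interval lay within 1 log2 unit either way for 44 of the 53 carriers, and the median half-width was 0.37. Because of the added 0.5, folds of weakly expressed carriers come out too small.

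**Figure D3:**
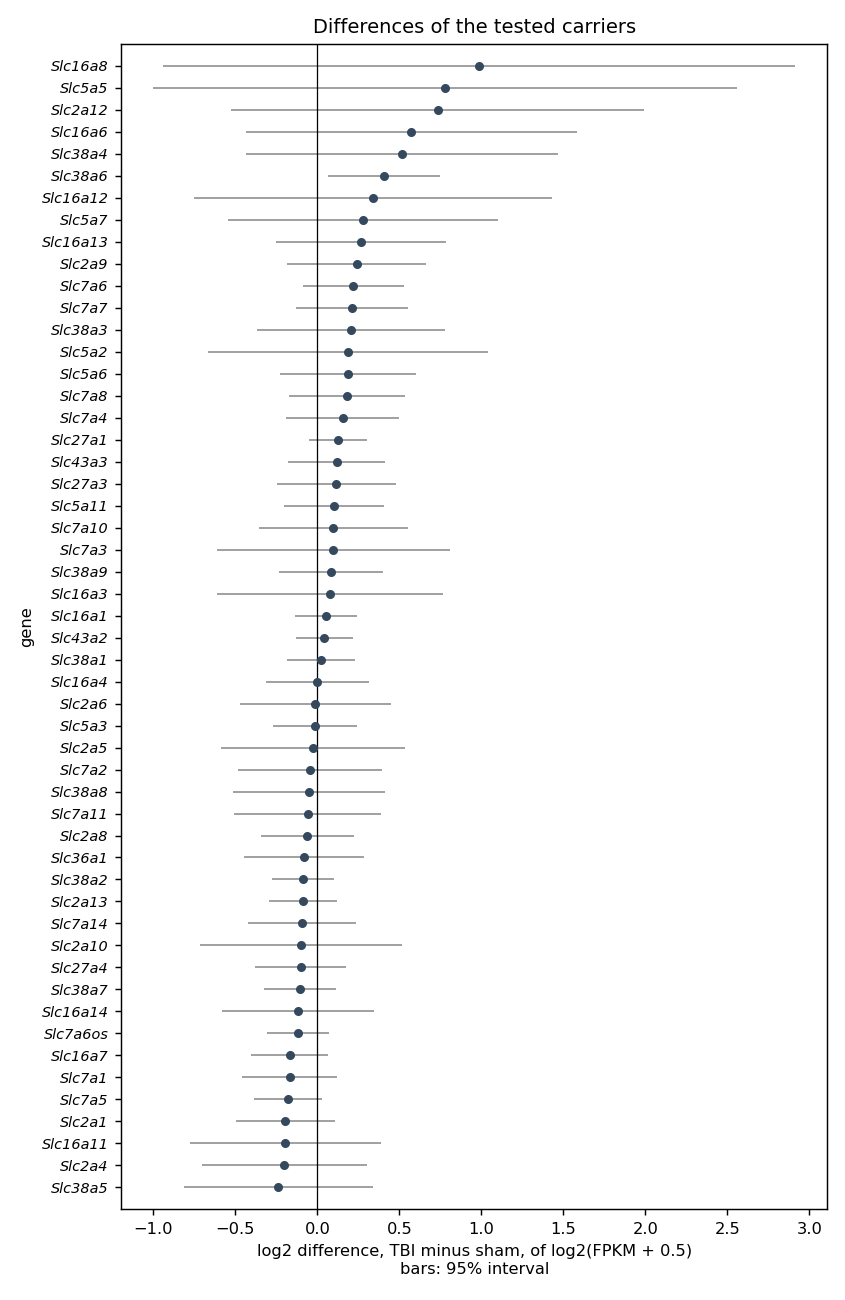
Log2 difference, TBI minus sham, on the scale of log2(FPKM + 0.5) with its 95% interval for 52 of the 53 tested carriers. Of the 52 intervals only that of Slc38a6, from 0.07 to 0.75, leaves out 0, and the widest is that of Slc16a8, from -0.94 to 2.91.

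Glucose carriers came first among the families by level of a single gene. Slc2a1, the glucose carrier of the blood-brain barrier and astrocytes, was at 67.2, 53.8, 54.0, 48.3 and 58.9 FPKM in TBI 1 to 5, against 62.3, 66.3, 48.5, 83.6 and 65.7 FPKM in sham 1 to 5. Sham 4 was the highest library, 4 of 5 TBI libraries lay below the sham mean, and the groups overlapped. Its log2 difference was -0.20 (SE 0.14, 95% interval -0.50 to 0.11, limma's adjusted p = 0.983). Slc2a1 is abundant in endothelium, and of 15 endothelial markers 13 were in the table, none at 0, with a summed level of 143 to 188 FPKM in TBI and 160 to 215 FPKM in sham. Sham 4 had the highest endothelial sum too, and the part of these markers in the level of Slc2a1 was not tested. Of the 13 endothelial markers 5 had a log2 difference above 0 and 8 below 0, with a median of -0.26. The groups were free of overlap for 1 of the 13, against 0.482% of all rows. That was the tight junction gene Cldn5, lower in TBI at 45.3 to 54.3 FPKM, against 61.3 to 82.4 FPKM in sham (limma's adjusted p = 0.983). Cldn5, Esam and Abcg2 were lower in TBI at an unadjusted p under 0.05 in limma's test, against 1.51% of all rows. Of 11 astrocyte markers 2 had a log2 difference above 0 and 9 below 0, with a median of -0.12. Their part in the level of Slc2a1 was not tested either. Without sham 4 the log2 difference of Slc2a1 was -0.10, and without sham 3 it was -0.30 and had an unadjusted p under 0.05.

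The other Slc2a carriers lay well below Slc2a1. Slc2a13, a proton-coupled myo-inositol carrier of neurons, was at 23.4, 30.2, 22.4, 27.5 and 26.9 FPKM in TBI 1 to 5, against 28.6, 24.4, 28.1, 29.4 and 27.8 FPKM in sham 1 to 5. TBI 1, TBI 3 and sham 2 were low, and the groups overlapped. It stood on 2 loci, and the second held 0 to 6.76 FPKM per library. Slc2a8, an intracellular hexose carrier, averaged 14.7 ± 1.37 FPKM in TBI and 15.5 ± 3.24 FPKM in sham (SD, n = 5 each). Slc2a6, a lysosomal family member, averaged 9.07 ± 2.39 FPKM in TBI and 8.98 ± 1.80 FPKM in sham (SD, n = 5 each). Slc2a5, a fructose carrier that marks microglia in brain, was highest in TBI 3, at 4.50 FPKM, and sham 5, at 5.36 FPKM, and between 1.85 and 3.41 FPKM in the other libraries. The 11 microglial markers summed to 337 FPKM in TBI 3 and 243 FPKM in sham 5, the highest of each group. Their ranges were 190 to 337 FPKM in TBI and 174 to 243 FPKM in sham, with no marker at 0. All 11 had a log2 difference above 0, against 50.4% of all rows, with a median of 0.12, and the groups overlapped for each marker. The log2 difference of Slc2a5 was -0.03. The part of these markers in the level of Slc2a5 was not tested. The insulin-responsive Slc2a4 averaged 0.591 ± 0.291 FPKM in TBI and 0.756 ± 0.345 FPKM in sham (SD, n = 5 each).

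Slc2a3, the main glucose carrier of neurons, had an unusually low listing. Its 2 loci summed to 0.132, 0, 0.252, 0.477 and 0.394 FPKM in TBI 1 to 5, against 0.269, 0.199, 0.597, 0.283 and 0.188 FPKM in sham 1 to 5, under the limit for testing. Eno2, the enolase of neurons, was likewise listed at a mean of only 1.52 FPKM, and Pex5, which peroxisomes of all cells need, at 0.606 FPKM. Whether fragments of these genes stand on other rows of the table was not tested, so the listing is given as deposited.

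Sodium-coupled carriers were led by Slc5a3, the myo-inositol carrier that cells use against osmotic stress. It was at 42.4, 43.2, 31.98, 39.8 and 34.7 FPKM in TBI 1 to 5, against 37.5, 49.0, 36.6, 34.4 and 37.1 FPKM in sham 1 to 5. Sham 2 was the highest library and TBI 3 the lowest, and the groups overlapped. The multivitamin carrier Slc5a6 was at 24.7, 12.1, 15.5, 15.3 and 14.4 FPKM in TBI 1 to 5, against 14.8, 19.0, 13.7, 12.1 and 11.4 FPKM in sham 1 to 5, with TBI 1 and sham 2 highest. Slc5a7, the high-affinity choline carrier of cholinergic terminals, was low, at 2.53, 0.423, 0.873, 0.691 and 0.219 FPKM in TBI 1 to 5, against 1.03, 0.694, 0.229, 0.235 and 0.782 FPKM in sham 1 to 5. TBI 1 stood apart from the other 9 libraries for Slc5a7. The renal glucose carriers Slc5a2 and Slc5a1 had means of 4.10 and 0.0270 FPKM, and Slc5a10 and Slc5a12 were listed at 0 in every library.

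Carriers of lactate and other monocarboxylates overlapped between the groups. Slc16a1, the lactate and ketone carrier of endothelium and glia, was among the steadiest, at 17.8, 17.9, 18.8, 18.0 and 18.2 FPKM in TBI 1 to 5, against 19.7, 14.4, 17.9, 16.97 and 18.9 FPKM in sham 1 to 5. Its values in TBI lay inside the range of sham. Slc16a7, the high-affinity lactate carrier of neurons, was at 2.63, 3.21, 3.52, 3.32 and 3.27 FPKM in TBI 1 to 5, against 3.61, 3.04, 3.95, 3.60 and 4.05 FPKM in sham 1 to 5. All 5 TBI libraries lay below the sham mean, though sham 2 lay below 4 of them, and the log2 difference was -0.17 (SE 0.11, 95% interval -0.40 to 0.07, limma's adjusted p = 0.983). Slc16a3, the lactate exporter of glycolytic cells, averaged 1.03 ± 0.616 FPKM in TBI and 0.933 ± 0.563 FPKM in sham (SD, n = 5 each). Slc16a14 averaged 11.2 ± 3.05 FPKM in TBI and 11.9 ± 2.43 FPKM in sham, and Slc16a11 8.93 ± 2.18 FPKM in TBI and 10.8 ± 4.63 FPKM in sham (SD, n = 5 each). Slc16a11 and Slc16a13 are neighbours that overlap on GRCr8, so fragments of the shared stretch cannot be told apart without strand.

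Large neutral amino acid and cystine carriers showed no separation of the groups. Slc7a5, the light chain that carries leucine and other large neutral amino acids across the blood-brain barrier, was at 23.8, 27.2, 25.1, 20.3 and 23.3 FPKM in TBI 1 to 5, against 28.2, 24.5, 24.6, 27.9 and 30.6 FPKM in sham 1 to 5. All 5 TBI libraries lay below the sham mean, but TBI 2 and TBI 3 lay above sham 2 and sham 3. Its log2 difference was -0.18 (SE 0.09, 95% interval -0.39 to 0.03, limma's adjusted p = 0.983). Slc3a2, the heavy chain it pairs with, averaged 85.8 ± 11.05 FPKM in TBI and 88.0 ± 6.67 FPKM in sham (SD, n = 5 each). Slc7a11, the cystine-glutamate exchanger that feeds glutathione synthesis, was at 19.4, 11.5, 13.8, 8.81 and 11.5 FPKM in TBI 1 to 5, against 11.3, 11.2, 10.98, 16.8 and 16.5 FPKM in sham 1 to 5. TBI 1, sham 4 and sham 5 were high, and the group means of 13.0 ± 3.97 FPKM in TBI and 13.4 ± 2.998 FPKM in sham (SD, n = 5 each) lay close together.

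Among the other Slc7a genes, Slc7a14, a lysosomal member, was at 16.5, 25.6, 28.1, 26.6 and 31.0 FPKM in TBI 1 to 5, against 25.3, 25.7, 29.1, 25.1 and 28.9 FPKM in sham 1 to 5. TBI 1 was the lowest library and TBI 5 the highest. The 11 neuronal markers summed to 3483 FPKM in TBI 1, with no marker at 0, and to 5447 to 6580 FPKM in the other TBI libraries and 5293 to 6567 FPKM in sham, and their part in the low value of Slc7a14 was not tested. Slc7a6, which exchanges cationic for neutral amino acids, averaged 7.98 ± 1.47 FPKM in TBI and 6.75 ± 0.986 FPKM in sham (SD, n = 5 each), a log2 difference of 0.22 (SE 0.14). Slc7a7, its relative of epithelia and macrophages, averaged 0.877 ± 0.235 FPKM in TBI and 0.680 ± 0.107 FPKM in sham (SD, n = 5 each), a log2 difference of 0.21 (SE 0.15). Slc7a6os, which carries the family's prefix only because it lies beside Slc7a6 and encodes no carrier, averaged 17.8 ± 1.94 FPKM in TBI and 19.3 ± 0.927 FPKM in sham (SD, n = 5 each), a log2 difference of -0.12 (SE 0.09). None of these 3 passed, with limma's adjusted p = 0.983 for each.

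Glutamine carriers included the only gene under an unadjusted p of 0.05. Slc38a6, a less studied family member found in neurons of mouse brain, was at 1.56, 0.956, 1.15, 0.960 and 0.985 FPKM in TBI 1 to 5, against 0.961, 0.881, 0.599, 0.581 and 0.600 FPKM in sham 1 to 5. All 5 TBI libraries lay above the sham mean, but sham 1 lay just above TBI 2 and TBI 4, so the groups overlapped. The log2 difference was 0.41 (SE 0.15, 95% interval 0.07 to 0.75, limma's adjusted p = 0.983). Its level is close to the limit for testing, and a floor of 1 FPKM removed it. Without sham 3, sham 4 or sham 5, or with choroid plexus markers as a covariate, it no longer had an unadjusted p under 0.05, and without sham 1 its groups no longer overlapped.

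The abundant Slc38a genes overlapped between the groups. Slc38a1, a glutamine carrier of neurons, was at 32.6, 30.3, 26.3, 29.8 and 30.2 FPKM in TBI 1 to 5, against 29.7, 23.6, 30.9, 31.6 and 31.5 FPKM in sham 1 to 5. Slc38a2, a relative that amino acid shortage induces, was at 31.3, 27.9, 27.6, 25.4 and 25.6 FPKM in TBI 1 to 5, against 30.6, 26.3, 28.1, 33.2 and 28.4 FPKM in sham 1 to 5. For both genes the groups overlapped, with sham 2 lowest for Slc38a1 and sham 4 highest for Slc38a2. Slc38a3, which releases glutamine from astrocytes, was at 67.0, 23.7, 39.4, 30.8 and 39.7 FPKM in TBI 1 to 5, against 26.9, 50.1, 33.4, 26.2 and 31.8 FPKM in sham 1 to 5. TBI 1 and sham 2, the libraries richest in choroid plexus markers, were highest. The 11 astrocyte markers summed to 2649 FPKM in TBI 1 and 3345 FPKM in sham 2, the lowest of each group. The part of either marker list in the level of Slc38a3 was not tested. Its log2 difference was 0.20 (SE 0.26, limma's adjusted p = 0.983). This turned to -0.09 once choroid plexus markers entered the fit as a covariate, and ran from 0.00027 without TBI 1 to 0.37 without TBI 2. Slc38a9, the lysosomal arginine sensor, averaged 2.71 ± 0.613 FPKM in TBI and 2.51 ± 0.318 FPKM in sham (SD, n = 5 each). Slc38a1, Slc38a2 and Slc38a4 are next to each other on chromosome 7 of GRCr8, yet Slc38a4 had a mean of only 0.737 FPKM.

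Proton-coupled, Slc43a and fatty acid carriers were each led by 1 or 2 genes. Slc36a1, the lysosomal proton-coupled carrier, was at 8.18, 14.8, 17.3, 11.7 and 13.4 FPKM in TBI 1 to 5, against 13.2, 14.6, 12.6, 12.9 and 14.1 FPKM in sham 1 to 5, with TBI 1 lowest and TBI 3 highest. Its neighbours on chromosome 10 of GRCr8, Slc36a2 and Slc36a3, had means of 0.0021 and 0.0056 FPKM. The leucine carrier Slc43a2 had the smallest coefficient of variation of all tested carriers, 7.07% over the 10 libraries, at 11.7 ± 0.878 FPKM in TBI and 11.3 ± 0.794 FPKM in sham (SD, n = 5 each). Slc43a3 averaged 1.86 ± 0.298 FPKM in TBI and 1.68 ± 0.324 FPKM in sham (SD, n = 5 each). A row that names Slc36a4 after another gene held 19.7 FPKM on average and is not counted among the carriers.

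Slc27a1, a fatty acid carrier that also activates its cargo, was at 37.5, 35.0, 36.6, 32.9 and 31.3 FPKM in TBI 1 to 5, against 36.4, 29.7, 29.7, 30.8 and 31.9 FPKM in sham 1 to 5. TBI libraries were above the sham mean in 4 of 5 cases, and sham 1 was above 3 of the TBI libraries. Its log2 difference was 0.13 (SE 0.08, 95% interval -0.05 to 0.31, limma's adjusted p = 0.983). Slc27a4, which serves skin and brain lipid uptake, was at 16.9, 26.99, 28.3, 25.1 and 23.6 FPKM in TBI 1 to 5, against 27.7, 24.9, 25.1, 25.3 and 25.1 FPKM in sham 1 to 5. TBI 1 was the lowest library for Slc27a4, and sham 1 stood above the other sham libraries. Slc27a2, the peroxisomal and liver form, was below the limit for testing, at 0.203 ± 0.142 FPKM in TBI and 0.496 ± 0.209 FPKM in sham (SD, n = 5 each), and it is named after its values were seen.

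**Figure D4:**
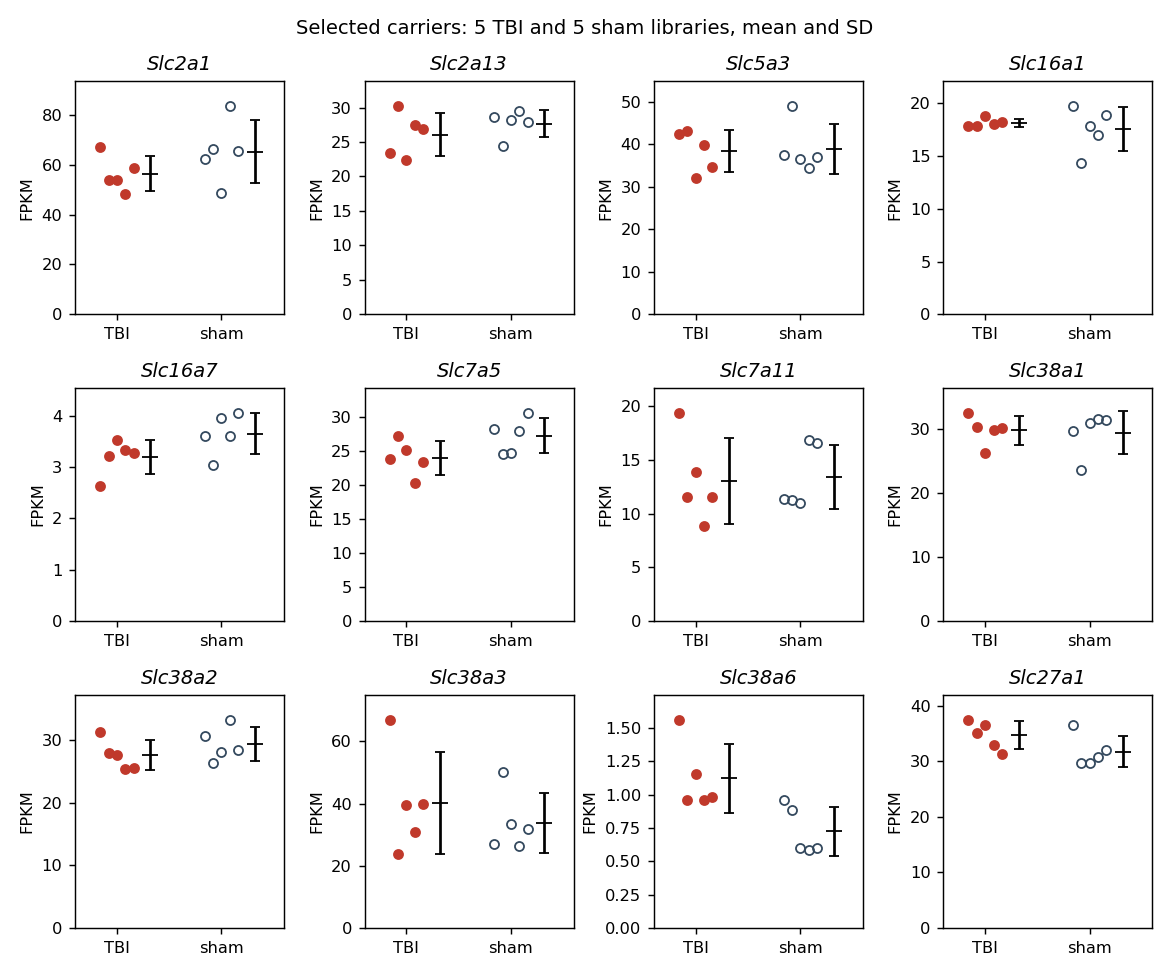
FPKM of 12 carriers in 5 TBI libraries (filled, left) and 5 sham libraries (open, right) in each panel, with the mean and SD beside the points (axes start at 0). The groups overlap in each panel, as for Slc38a6, with 0.956 to 1.56 FPKM in TBI and 0.581 to 0.961 FPKM in sham.

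Some carriers varied widely between libraries of both groups. Of the 53 tested, 25 had a coefficient of variation under 20% over the 10 libraries and 10 had one over 50%, with a median of 22.7%. The 5 most variable at a mean of at least 1 FPKM were Slc16a8, Slc2a12, Slc5a5, Slc16a6 and Slc16a12. TBI 1 was the highest library for 20 of the 53 carriers and the lowest for 12, and sham 5 was the highest for 8 and the lowest for 12. The same was not counted over all rows, so these numbers are not read as a trait of the carriers.

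Slc16a8, a lactate carrier known from retinal pigment epithelium and choroid plexus, was at 9.94, 0.154, 1.78, 3.02 and 4.93 FPKM in TBI 1 to 5, against 0.101, 9.02, 2.18, 0.259 and 0.337 FPKM in sham 1 to 5. TBI 1 and sham 2 were highest, and TBI 2, sham 1, sham 4 and sham 5 lowest. The choroid plexus markers summed to 34571, 159, 9837, 12777 and 18956 FPKM in TBI 1 to 5, against 109, 32951, 10194, 154 and 527 FPKM in sham 1 to 5. The same 4 libraries were lowest and the same 2 highest in both. The libraries form separate clusters in these markers, so no correlation is given.

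Slc5a5, the iodide carrier, was at 19.7, 0.580, 6.47, 6.95 and 6.93 FPKM in TBI 1 to 5, against 1.08, 13.8, 5.07, 2.86 and 0.842 FPKM in sham 1 to 5. It was lowest in the 4 libraries with the least choroid plexus and highest in TBI 1 and sham 2. The same held for Slc16a6, a carrier of ketone bodies and taurine, at 16.2, 2.23, 4.51, 4.55 and 6.22 FPKM in TBI 1 to 5, against 2.38, 7.57, 4.79, 2.67 and 2.23 FPKM in sham 1 to 5. In all, 6 of the 53 carriers had these 4 libraries as their lowest and 9 had TBI 1 and sham 2 as their highest. How many of all rows share these orders was not counted, so the 6 and 9 are not read as a trait of the carriers.

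Slc2a12, a glucose carrier of insulin-responsive tissues, was at 12.6, 1.06, 2.14, 3.06 and 4.84 FPKM in TBI 1 to 5, against 0.862, 4.63, 2.49, 2.79 and 0.686 FPKM in sham 1 to 5. Slc16a12, a creatine carrier, was at 8.66, 1.04, 2.36, 3.20 and 4.43 FPKM in TBI 1 to 5, against 1.47, 5.44, 2.53, 3.93 and 0.947 FPKM in sham 1 to 5. Sham 4 was not among the low libraries for either gene. Of 14 matrix and meninges markers 13 were in the table, with Col1a2 listed at 0, and their sum was 607 FPKM in sham 4, 654 FPKM in sham 2 and 874 FPKM in TBI 1, with ranges of 78.2 to 874 FPKM in TBI and 72.5 to 654 FPKM in sham. With the matrix and meninges score as a covariate the log2 difference of Slc2a12 was 0.73 (SE 0.32, against 0.57 without the covariate) and had an unadjusted p under 0.05, with limma's adjusted p = 0.910. In the same fit Slc16a12 had a difference of 0.34 (SE 0.24, against 0.49 without the covariate).

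For these variable carriers the log2 differences had wide intervals. Slc16a8 differed by 0.99 (95% interval -0.94 to 2.91), Slc5a5 by 0.78 (SE 0.81) and Slc2a12 by 0.73 (-0.53 to 1.99). Slc16a6 differed by 0.57 (-0.44 to 1.58) and Slc16a12 by 0.34 (-0.75 to 1.43), with limma's adjusted p = 0.983 for all 5. Single libraries moved these differences by more than 1.5 times. Without TBI 1 they were 0.55 for Slc16a8, 0.35 for Slc5a5, 0.30 for Slc2a12, 0.20 for Slc16a6 and 0.02 for Slc16a12. Without TBI 2 they were 1.55 for Slc16a8, 1.40 for Slc5a5, 1.07 for Slc2a12, 0.86 for Slc16a6 and 0.66 for Slc16a12. Over all 10 libraries left out in turn, Slc16a8 ran from 0.55 to 1.63, and the other 4 kept within the values without TBI 1 and without TBI 2. With the choroid plexus score (an average of its markers after centring each on the log2 scale) as a covariate, the differences were -0.18 for Slc16a8, -0.25 for Slc5a5, -0.16 for Slc16a12, 0.12 for Slc2a12 and 0.03 for Slc16a6. In that fit 26 of the 53 carriers (49.1%) had a difference above 0, against 52.1% of all rows. At an unadjusted p under 0.05 it held 0 carriers, against 317 of the 16194 rows.

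**Figure D5:**
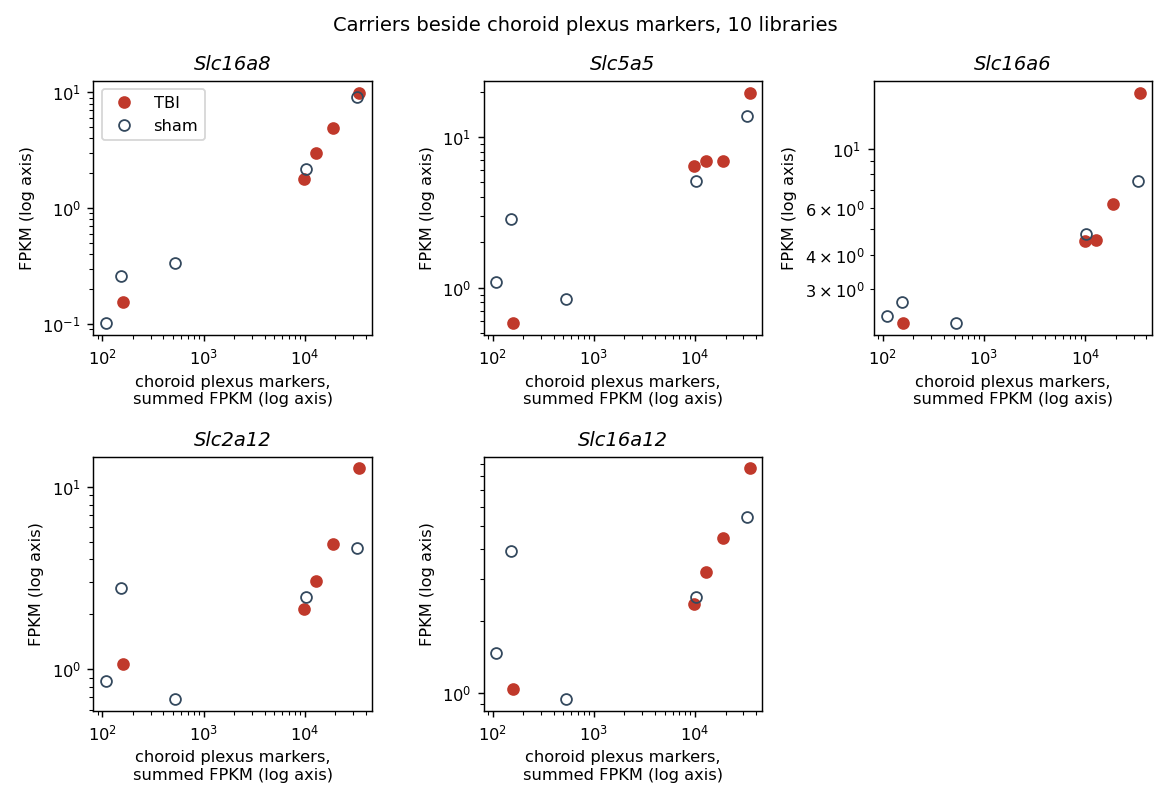
FPKM of 5 carriers (log axis) against the summed FPKM of the choroid plexus markers (log axis) in 5 TBI (filled) and 5 sham (open) libraries. The libraries fall into a set of 4 at 109 to 527 FPKM of markers and a set of 6 at 9837 to 34571 FPKM, and Slc16a8, Slc5a5 and Slc16a6 are lower in every library of the first set, while Slc2a12 and Slc16a12 are not.

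Genes that work with the carriers gave a similar picture. Of 9 partner and chaperone genes 6 were tested, with a median log2 difference of 0.02 and 0 past adjustment in limma's test. The partner Bsg, the chaperone of the lactate carriers, averaged 549.97 ± 46.9 FPKM in TBI and 562 ± 141 FPKM in sham (SD, n = 5 each). Arrdc4, an arrestin that lowers glucose uptake, averaged 3.45 ± 0.314 FPKM in TBI and 2.80 ± 0.473 FPKM in sham, and Emb, a chaperone of lactate carriers, 19.4 ± 2.02 FPKM in TBI and 18.0 ± 4.45 FPKM in sham (SD, n = 5 each). Arrdc4 was the only one of these 6 under an unadjusted p of 0.05, against 2.91% of all rows. A list of amino acid transport genes outside the 8 families counted 15, of which 13 were tested, with a median log2 difference of -0.08. It included the heavy chains Slc3a1 and Slc3a2, which are also in the partner list, and the creatine carrier Slc6a8. Of these, Slc6a9, the glycine carrier of glia, averaged 28.8 ± 2.47 FPKM in TBI and 25.3 ± 2.07 FPKM in sham (SD, n = 5 each). Slc1a5, a neutral amino acid exchanger, averaged 2.91 ± 1.83 FPKM in TBI and 1.92 ± 0.557 FPKM in sham (SD, n = 5 each). It was at 6.07 FPKM in TBI 1 and 1.54 to 2.81 FPKM in the other TBI libraries.

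All 25 genes of glucose and lactate use were tested, 9 with a difference above 0 and 16 below 0 and a median of -0.01. Aldoc, the aldolase of astrocytes, averaged 465 ± 77.3 FPKM in TBI and 544 ± 47.4 FPKM in sham, and Mpc2, a subunit of the mitochondrial pyruvate carrier, 121 ± 10.8 FPKM in TBI and 131 ± 10.03 FPKM in sham (SD, n = 5 each). Of 14 genes of fatty acid uptake and activation 13 were tested, with a median of 0.0036. Cpt1a, which admits fatty acids to mitochondria, averaged 10.6 ± 2.47 FPKM in TBI and 8.97 ± 0.631 FPKM in sham (SD, n = 5 each). Acsl1, an acyl-CoA synthetase, averaged 20.8 ± 9.58 FPKM in TBI and 15.4 ± 0.647 FPKM in sham (SD, n = 5 each). TBI 1 was highest for both, with Cpt1a at 14.8 FPKM and Acsl1 at 37.6 FPKM. The other TBI libraries held 8.74 to 10.8 FPKM of Cpt1a and 15.2 to 19.9 FPKM of Acsl1. Of 16 genes of the amino acid response 14 were tested, with a median of -0.03. The transcription factor Atf3 averaged 1.08 ± 0.583 FPKM in TBI and 0.570 ± 0.126 FPKM in sham, and Asns, asparagine synthetase, 38.6 ± 4.12 FPKM in TBI and 35.0 ± 1.69 FPKM in sham (SD, n = 5 each). No gene of the glucose, fatty acid, amino acid response or other amino acid transport lists passed limma's test, adjusted, or reached an unadjusted p under 0.05.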

How the data were processed

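RNA of the rat hippocampus was poly-A selected and sequenced on a HiSeq instrument, per the labels' protocols. FPKM values per library, each with a status word, are what the authors deposited. The submitters' processing notes list the rn5 build and the tools Cuffdiff, Cufflinks, TopHat, TopHat2, Bowtie and Bowtie2, without saying how each was used. The sources used here give neither annotation nor filters. The 75th percentiles of the libraries lay between 13.1 and 13.5 FPKM. Depth is unknown, so no count test was run. No strand is recorded, so genes that overlap or lie antisense share fragments that cannot be assigned.

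Rows sharing a symbol were summed per library, and unnamed loci were kept as rows of their own. The whole table was then fitted with limma 3.58.1 in R 4.3.3 on log2(FPKM + 0.5), two-sided and with a mean trend, for rows with a mean of at least 0.5 FPKM. P-values were adjusted by Benjamini-Hochberg over all 16194 rows tested, with a threshold of 0.05. The procedure was tested on simulated data. No carrier had a status other than OK, while 81 rows of the table did.

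Groups and numbers came from the titles of the libraries. The alternatives covered pseudocounts, filters, rows as deposited, scalings, variance models, array weights, a replicate block, marker scores as covariates, subsets of libraries and the status words. Named in full were the 2 carriers with the highest mean in each family, the 8 with the smallest p, 11 with known roles in brain, and the 5 with the largest coefficient of variation at a mean of at least 1 FPKM. Carriers without overlap between groups would have been added from a mean of 1 FPKM upward. Members, lists and rule were chosen with earlier results of these data known. A carrier that the rule names is not reported here.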

Additional observations from a re-analysis of the deposited data

Results flagged for a closer look

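In 9 of 60 groups of 5 libraries of the 30 carriers named in full, 1 library lay apart from the other 4 by a gap of more than 0.71 of the range of its group. Chance marks about 1 in 20 groups of normally distributed values, and 5 of the 30 carriers had been named for their large spread, Slc16a8 and Slc16a6 among them, so the count is not read against that rate. Among TBI libraries, TBI 1 stood high for Slc5a6 at 24.7 FPKM, against 12.1 to 15.5 FPKM in the others, for Slc5a7 at 2.53 FPKM, against 0.219 to 0.873 FPKM, and for Slc16a6 at 16.2 FPKM, against 2.23 to 6.22 FPKM. Among sham libraries, sham 2 stood high for Slc5a3 at 49.0 FPKM, against 34.4 to 37.5 FPKM, and for Slc16a8 at 9.02 FPKM, against 0.101 to 2.18 FPKM, but low for Slc38a1 at 23.6 FPKM, against 29.7 to 31.6 FPKM. Sham 1 was high for Slc27a4 at 27.7 FPKM, against 24.9 to 25.3 FPKM. Sham 5 was high for Slc43a3 at 2.25 FPKM, against 1.48 to 1.61 FPKM, and sham 3 for Slc2a3 at 0.597 FPKM, against 0.188 to 0.283 FPKM.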

How the results depend on the processing

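No carrier passed the adjusted threshold under any of the 24 alternatives run. The count of carriers at an unadjusted p under 0.05, 1 in the reported fit, was 2 with no filter, 0 with a floor of 1 FPKM, 3 with array weights, 0 with the choroid plexus score, 2 with the matrix and meninges score (Slc38a6 and Slc2a12) and 2 with libraries 2 to 5. With each library left out in turn it ran from 0 to 3. The count of carriers whose groups did not overlap, 0 as reported, was 1 with libraries 2 to 5 and ran from 0 to 1 when a library was left out. Fewer libraries per group make a lack of overlap more frequent, and its share over all rows is not given for these settings. Of all rows, 0 passed adjustment, except without sham 4, where 2 rows passed, none a carrier, so the range with a library left out was 0 to 2. Rows at an unadjusted p under 0.05 numbered 472 of 16194 as reported, 700 of 21281 with no filter and 394 of 14398 with a floor of 1 FPKM. They numbered 1318 with array weights, 317 with the choroid plexus score and 703 with the matrix and meninges score. With libraries 2 to 5 they numbered 850 of 16030, and with a library left out 338 to 773. Of the 28 named carriers with a fit, 4 changed sign with the choroid plexus score, Slc38a3 (-0.088), Slc16a8 (-0.18), Slc5a5 (-0.25) and Slc16a12 (-0.16). With libraries 2 to 5, 6 changed sign, Slc38a3 (-0.069), Slc16a12 (-0.13), Slc27a4 (0.046), Slc36a1 (0.063), Slc7a14 (0.032) and Slc38a1 (-0.0033). Array weights turned 4, quantile normalization 1, and leaving out 1 library 0 to 5, the 5 without TBI 1. The other alternatives turned 0. With rows as deposited, the sham mean of Slc2a13 was 25.6 FPKM. The cause of these shifts was not tested.

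The replicate block, with the numbers of the titles as a factor, gave 1 carrier at an unadjusted p under 0.05, against 672 of all rows. It gave 0 carriers past adjustment. The numbers do not appear to pair the libraries: correlations of same-numbered libraries' deviations from their group means ran from -0.38 to 0.31, and 0 of 5 TBI libraries correlated best with their own number. The unknown depth limits the low carriers most.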

Other observations

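Some carriers outside those named in full showed library patterns of their own, chosen after their values were seen. Slc38a4 was at 1.83 FPKM in TBI 2, 1.69 FPKM in TBI 4 and 1.69 FPKM in sham 1, and at 0.132 to 0.660 FPKM in the other 7 libraries. Slc7a3, a cationic amino acid carrier of neurons, was highest in the same 3 libraries, at 2.51, 2.91 and 3.92 FPKM. Prox1, the dentate gyrus marker, was at 12.1 FPKM in TBI 2, 13.4 FPKM in TBI 4 and 6.99 FPKM in sham 1, within ranges of 10.8 to 18.0 FPKM in TBI and 6.99 to 22.1 FPKM in sham. Gad1, a neuronal marker, was highest in the same 3 libraries, at 79.2, 84.5 and 91.5 FPKM, against 52.7 to 65.2 FPKM elsewhere. Gad2, another neuronal marker, did not share this order, with 53.2, 49.8 and 64.3 FPKM there and 54.0 FPKM in TBI 5. The part of such markers in these levels was not tested. Slc5a8, a monocarboxylate carrier, was at 2.75 FPKM in TBI 1 and at 0 to 0.125 FPKM in the other 9 libraries. Slc16a11 was at 12.1 FPKM in TBI 1, 15.3 FPKM in sham 2 and 16.3 FPKM in sham 4, the 3 libraries with the highest sums of matrix and meninges markers, and at 6.76 to 9.48 FPKM elsewhere. Slc16a11 stood on 2 loci. The stronger locus held 9.58 FPKM in TBI 1, 9.44 FPKM in sham 2 and 12.8 FPKM in sham 4, and 4.01 to 7.53 FPKM elsewhere. On the weaker locus TBI 1 held 2.56 FPKM, below TBI 2 at 2.86 FPKM and TBI 3 at 3.57 FPKM.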
